A study of Mus musculus with 55 samples.

Results

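Krt6a, Tgm3, Crct1, Emp1, Ccn1, Eln, Ifi202b and Fndc9 are 8 mouse genes, most of them best known from skin, other epithelia, extracellular matrix or immunity, whose levels were followed in cultured forebrain neurons over every stage, stimulus and time of the study. The genes were listed because they reacted to neuronal activity in these same data, so their differences between stimulated and control cultures are given as descriptions, with no test. Each gene was represented by its RefSeq transcript with the most counts, and the 8 are among 28492 genes measured for maturation and 28216 measured for stimuli. The name "induced" did not hold for the whole list. Tgm3 was lower in most, but not all, stimulated groups at 21DIV in the maturation experiment. Eln met the thresholds for a change in no stimulus comparison. The genes are therefore referred to below by name.

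RNA of cultured embryonic cortex and hippocampus from CD1 mice was measured in 55 libraries made with CEL-Seq2, a bulk method that counts the 3′ ends of transcripts. In the maturation experiment, cultures at 7DIV (days in vitro) or 21DIV (labelled 23 days for these samples) were left unstimulated (basal), or received 55 mM KCl, or both 50 µM bicuculline (Bic, which blocks GABA-A receptors) and 2.5 mM 4-aminopyridine, a potassium channel blocker (Bic+4AP), for 15 or 180 min, with 3 libraries per group except 2 for each Bic+4AP group at 21DIV. In the stimuli experiment, 21DIV cultures were basal (3 libraries), received 55 mM KCl or 50 µM Bic alone for 15, 45 or 180 min (2 libraries each), or were silenced for 48 h with 1 µM tetrodotoxin (TTX, a sodium channel blocker; basal TTX, 4 libraries) and then washed free of it (TTX withdrawal, TTXw) for 15, 45 or 180 min (3, 2 and 3 libraries). Per the paper, TTX was removed by repeated exchanges into fresh medium, while KCl and Bic replaced only a small volume of conditioned medium. The paper says control neurons were washed identically, but not whether these were the basal TTX cultures. The part of the medium change in the TTXw values was not tested. The animals carried no genetic change named in the labels. The cultures were not sorted, so the cell that made a transcript is not known. Fewer cells of a type cannot be told apart from less RNA per cell.

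Neuronal activity opens calcium entry routes and sets off waves of transcription, first of immediate early genes such as Fos and later of effector genes that act on synapses, growth and matrix. Several of the 8 genes belong to programs that other tissues use on stress, wounding or stretch. Krt6a is a keratin of activated epidermis, Crct1 lies in the epidermal differentiation complex, Tgm3 crosslinks proteins of the cornified layer, Emp1 is a membrane protein related to PMP22, Ccn1 is a matricellular protein and immediate early gene of many cell types, Eln encodes tropoelastin, and Ifi202b is an interferon-inducible protein of the HIN-200 family. Fndc9 encodes a membrane protein with a fibronectin type III domain.

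Library totals ran from 1177500 to 14012872 counts, with medians of 2867836 at 7DIV, 5088478 at 21DIV for maturation and 2384138 for stimuli. Defining markers of skin epithelium were close to absent. Of 11 keratinocyte or epithelial markers in the tables, including Krt5, Krt14, Epcam and Cdh1, 0 passed the low-count filter in either experiment, and their summed level was at most 8.58 CPM (counts scaled by each library's total) across maturation and 10.6 CPM across stimuli libraries. All 10 neuronal markers were present, and their sum ran from 6507 to 10489 CPM and from 4332 to 10882 CPM. In both KCl 15 min groups at 21DIV, Nptx2, known as a slower responder, was higher than at the later KCl times. Fos was highest at KCl 180 min. Nptx2 averaged 679 CPM at KCl 15 min, 257 CPM at 45 min and 154 CPM at 180 min in the stimuli experiment, while Fos averaged 83.0, 68.4 and 119 CPM. Nptx2 in the maturation experiment averaged 279 CPM at KCl 15 min and 115.4 CPM at 180 min, and Fos 37.5 and 163 CPM. Npas4, another early gene, differed between the experiments. It was highest at KCl 15 min in the stimuli experiment (206, 118 and 168 CPM), but not in the maturation experiment (247 and 809 CPM). These marker genes were chosen after their values were seen, the order was not tested, and the times below are those of the labels.

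**Figure D1:**
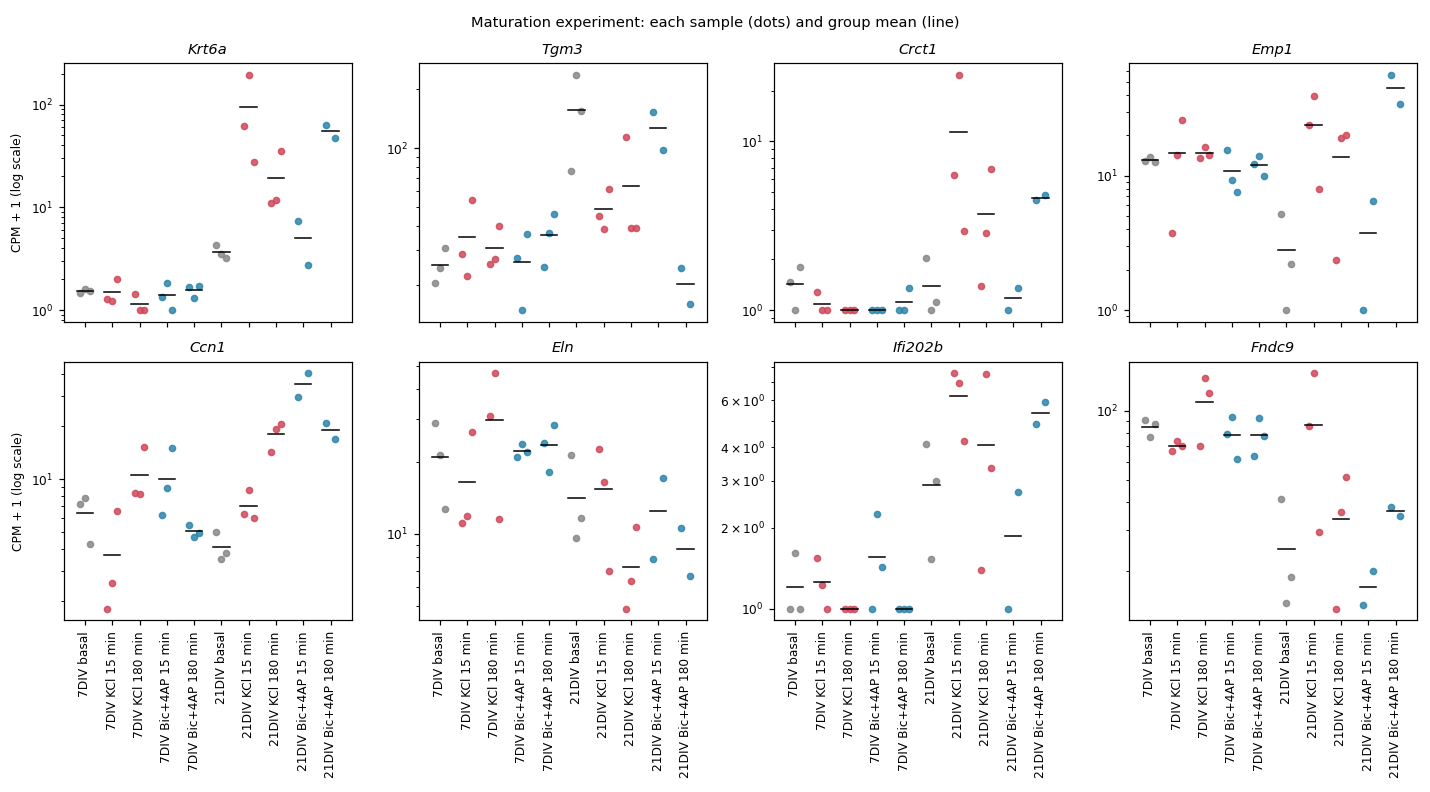
Levels of the 8 genes in the maturation experiment. Each dot is 1 library (CPM + 1, log scale, a different range in each panel), the line is the group mean, and grey, red and blue mark basal, KCl and Bic+4AP cultures; Krt6a, Crct1 and Ifi202b lie near the floor in every 7DIV group, and Tgm3 is highest in basal 21DIV cultures.

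Krt6a (chr15:101689928-101694305, minus strand, mm10) gave the highest stimulated level relative to its control in KCl cultures at 21DIV. In basal 21DIV cultures of the stimuli experiment its level was 10.9, 16.7 and 11.8 CPM, and after KCl for 15 min it was 435 and 464 CPM. Both stimulated libraries lay far above all 3 basal ones, and the log2 fold change was 5.11 (SE 0.27). At the later KCl times the level was lower. It was 46.7 and 42.3 CPM at 45 min (log2 fold change 1.77, SE 0.31) and 39.6 and 15.5 CPM at 180 min (1.01, SE 0.37), where the lower library overlapped the basal range.

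Bic alone gave Krt6a levels of 204 and 217 CPM at 15 min, a log2 fold change of 4.01 (SE 0.28). At 45 min the libraries were further apart, at 128.8 and 364 CPM (4.25, SE 0.27), and the difference was 3.33 without replicate 2 and 4.85 without replicate 1. At 180 min Krt6a stood at 43.4 and 39.7 CPM (1.67, SE 0.30), still above each basal library. The KCl and Bic comparisons used the same 3 basal libraries and are not independent of each other. Astrocyte markers moved with these stimuli. Their sum was 4755 to 4793 CPM at KCl 15 min and 5192 to 5885 CPM at Bic 45 min, against 2621 to 3221 CPM in basal cultures. Of 9 markers 4 rose with KCl and 6 with Bic, beside 7.79% and 8.61% of all genes called in either direction. The part of these markers in the KCl and Bic values of the 8 genes was not tested.

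The maturation experiment also held high Krt6a libraries at KCl 15 min. Krt6a was 3.29, 2.50 and 2.21 CPM in basal 21DIV cultures and 61.2, 193 and 26.3 CPM after KCl for 15 min, with no overlap and a log2 fold change of 5.13 (SE 0.55). Replicate 2 was the highest of the 3, and without it the difference was 4.05. At KCl 180 min the libraries were at 10.1, 10.8 and 34.2 CPM (2.77, SE 0.55), and 1.99 without replicate 3. Bic+4AP gave 6.28 and 1.72 CPM at 15 min, overlapping the basal libraries, and 61.9 and 46.7 CPM at 180 min (4.35, SE 0.57).

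At 7DIV Krt6a was at 0 to 2 counts in each of the 15 libraries, under the 3 counts taken as the floor in this data, so no fold change is given for that stage. TTX withdrawal left it near the silenced level. It was 2.66, 5.23, 1.43 and 2.17 CPM in basal TTX cultures and between 1.51 and 3.93 CPM in the 8 TTXw libraries, with overlapping groups and log2 fold changes of -0.57 to 0.09. The order of group means in the stimuli experiment ran from KCl 15 min (449 CPM) over Bic 45 min (247 CPM), Bic 15 min (211 CPM), KCl 45 min (44.5 CPM), Bic 180 min (41.5 CPM) and KCl 180 min (27.5 CPM) to basal (13.1 CPM) and the TTX groups. Taking the root of the summed squared SDs as the spread, KCl 15 min stood beyond its neighbour, Bic 45 and 15 min did not differ, KCl 45 min and Bic 180 min did not differ from each other but stood beyond basal, and KCl 180 min did not differ from basal.

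The nearest paralog of Krt6a had few counts. Krt6b, whose transcript is 90.8% identical to that of Krt6a, but 69.4% over the last 400 bases that 3′ counting reads, had 11 counts over all maturation libraries and 5 over all stimuli libraries. An antisense gene, Gm49428, and a microRNA gene lie over Krt6a on the other strand, and the sources used here do not say whether counting used strand. Of 32 other keratin genes, 4 passed the low-count filter in the stimuli experiment. Among these, Krt73, a keratin of hair follicles whose gene lies within 250 kb of Krt6a, rose with KCl at 15 min in edgeR's quasi-likelihood test (log2 fold change 2.05, adjusted p = 0.0026) and with Bic at 45 min (2.27, adjusted p = 0.00067), but fell with Bic+4AP at 180 min in the maturation experiment (-2.38, adjusted p = 0.021). It was 2.11 ± 0.840 CPM (SD, n = 3) in basal and 9.08 ± 0.944 CPM (SD, n = 2) in KCl 15 min cultures.

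Crct1 (chr3:93014205-93015686, minus strand), a small cysteine-rich protein of the epidermal differentiation complex, followed Krt6a across conditions at far fewer counts. In basal 21DIV cultures of the stimuli experiment it was 0.860, 3.35 and 0.379 CPM, and after KCl for 15 min 14.6 and 19.0 CPM (log2 fold change 3.46, SE 0.60). Bic gave 8.52 and 6.30 CPM at 15 min (2.32, SE 0.68) and 3.06 and 9.28 CPM at 45 min (2.06, SE 0.66). The 45 min libraries overlapped basal replicate 2, the highest control, and without that control the KCl 15 min difference was 4.59 and the Bic differences 3.45 and 3.19. Without Bic 45 min replicate 2 that difference was 1.03.

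Maturation libraries held Crct1 at 6, 0 and 1 counts in basal 21DIV libraries and at 73, 100 and 11 counts after KCl for 15 min. The groups did not overlap, and the log2 fold change was 4.71 (SE 1.03) with all libraries, 6.69 without basal replicate 1 and 3.27 without KCl replicate 2. After Bic+4AP for 180 min it was 3.5 and 3.8 CPM (3.24, SE 1.11). At 7DIV no library held more than 3 counts, and in the TTX and TTXw cultures together 3 counts were found in 12 libraries. Another gene of the same complex, Lce1i, which encodes a late cornified envelope protein, was the 1 of 23 genes within 250 kb of Crct1 that passed the filter, and only in the stimuli experiment. It passed through the stimulated libraries where it was high, so its values are descriptions. It was 0.344 ± 0.375 CPM (SD, n = 3) in basal cultures, 10.4 ± 0.196 CPM (SD, n = 2) after KCl for 15 min and 7.54 ± 2.02 CPM (SD, n = 2) after Bic for 45 min. Basal libraries held at most 2 counts of Lce1i, so its fold is not given.

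**Figure D2:**
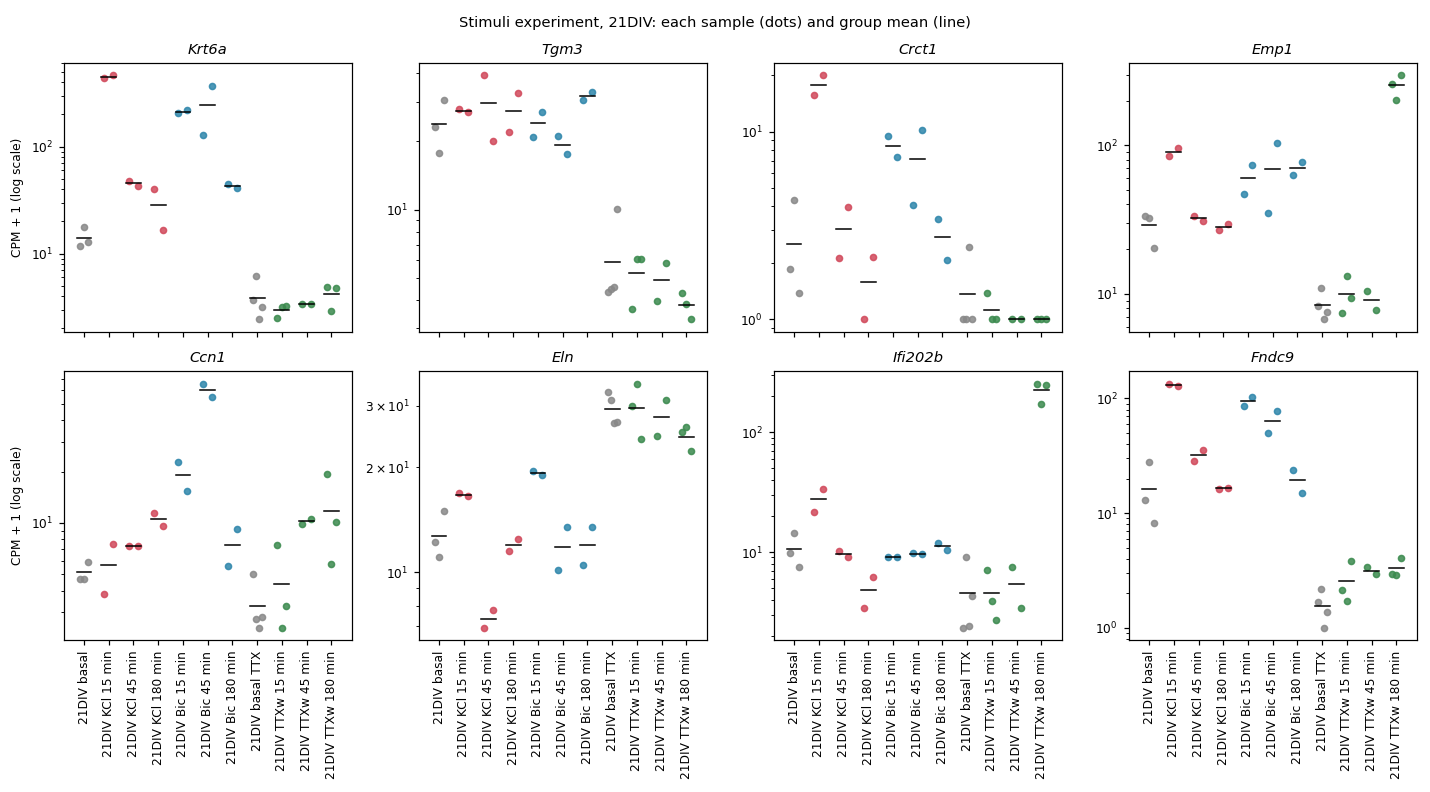
Levels of the 8 genes in the stimuli experiment at 21DIV. Each dot is 1 library (CPM + 1, log scale, a different range in each panel), the line is the group mean, and grey, red, blue and green mark controls, KCl, Bic and TTXw cultures; Krt6a, Crct1 and Fndc9 peak at KCl 15 min, while Emp1 and Ifi202b peak at TTXw 180 min.

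Tgm3 (chr2:129987794-130050399, plus strand), the epidermal transglutaminase, moved the other way. Basal 21DIV cultures of the maturation experiment held 75.0, 237 and 154 CPM, and it was 23.2 and 14.9 CPM after Bic+4AP for 180 min, with no overlap and a log2 fold change of -3.0 (SE 0.49). KCl for 15 min gave 44, 37.6 and 61.0 CPM, all below the lowest basal library (-1.70, SE 0.38). At KCl 180 min 2 libraries were at 38 CPM and replicate 1 at 113.3 CPM, within the basal range (-1.30, SE 0.38, and -2.04 without replicate 1). Bic+4AP for 15 min showed no drop, with libraries at 97.2 and 153 CPM, within the basal range. In those Bic+4AP 180 min cultures the astrocyte markers were lower too, with a summed level of 1762 to 3386 CPM against 4645 to 5669 CPM in basal cultures. Oligodendrocyte markers were 2390 to 3158 CPM in basal cultures and lower in the same Bic+4AP cultures (1009 to 1647 CPM). They were lower too at KCl 180 min (1150 to 1657 CPM) and at KCl 15 min (1898 to 2142 CPM). Of 7 tested, 3 fell and 1 rose at 21DIV, beside 17.6% of all genes called in either direction. The part of both marker groups in the result was not tested.

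The drop of Tgm3 was not found in the stimuli experiment, where its basal level was 22.1, 16.7 and 29.6 CPM. The log2 fold changes with KCl and Bic ran from -0.32 to 0.44, and none met the thresholds. In TTXw cultures Tgm3 was between 2.28 and 5.07 CPM, close to the basal TTX libraries. At 7DIV its level was between 13.8 and 53.4 CPM in all 15 libraries, and no stimulus group separated from basal. Of 8 other transglutaminase genes none passed the filter, so Tgm3 was the 1 member of that family with enough counts to follow. Of the other cornified envelope genes listed, 40 in all, 9 passed the filter for maturation and 8 for stimuli. S100a10, a calcium-binding protein with many roles outside skin, rose with KCl at 15 min in both experiments (0.89, edgeR adjusted p = 0.0028, and 0.79, adjusted p = 0.0029) and with Bic at 15 min (0.92, adjusted p = 0.0014). Lor, which encodes loricrin, fell with Bic+4AP at 180 min (-1.66, adjusted p = 0.0013).

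Emp1 (chr6:135362550-135383173, plus strand), a tetraspan membrane protein of epithelia, had its highest level in TTX withdrawal. It was 7.32, 9.87, 5.72 and 6.51 CPM in basal TTX cultures and 260, 201 and 296 CPM after TTXw for 180 min. All 3 libraries stood far above the controls, with a log2 fold change of 5.09 (SE 0.27). At TTXw 15 and 45 min Emp1 was between 6.42 and 12.2 CPM and overlapped the controls.

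KCl and Bic gave smaller differences of Emp1, from a higher control. Basal cultures without TTX were at 32.7, 31.6 and 19.3 CPM, and KCl for 15 min gave 84.1 and 95.7 CPM (1.68, SE 0.26). With KCl for 45 and 180 min the libraries were between 25.8 and 32.6 CPM, within the basal range. Bic kept Emp1 above basal at all 3 times, with 46.3 and 72.9 CPM at 15 min (1.02, SE 0.28), 34 and 103 CPM at 45 min (1.32, SE 0.26) and 62.3 and 76.8 CPM at 180 min (1.31, SE 0.26). At 45 min the difference rested on replicate 2 and was 0.30 without it. By group means TTXw 180 min stood beyond the spread above KCl 15 min, KCl 15 min above Bic 180 and 15 min but not Bic 45 min, whose libraries were far apart, and basal cultures above all earlier TTX groups.

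Emp1 in the maturation experiment was at 24, 0 and 11 counts in the basal 21DIV libraries, or 4.15, 0 and 1.22 CPM. After Bic+4AP for 180 min it was 55.3 and 33.1 CPM (log2 fold change 4.64, SE 0.80), and after KCl for 15 min 23.0, 38.1 and 6.94 CPM (3.66, SE 0.77). Both groups lay above the basal libraries, and both differences were larger without basal replicate 1, at 5.87 and 4.89. At KCl 180 min replicates 2 and 3 were at 18.1 and 19.1 CPM, and replicate 1, at 1.36 CPM, was among the controls (2.85, SE 0.78). At 7DIV Emp1 was 11.8, 12.9 and 11.6 CPM in basal cultures and between 2.72 and 24.9 CPM in the stimulated ones, which overlapped them at each stimulus and time.

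Of 6 genes of the PMP22 and EMP family, 4 passed the filter in the stimuli experiment and 3 in the maturation experiment. Of these, 0 were called with KCl, Bic or Bic+4AP. In the stimuli experiment 7.79% of all genes were called with KCl, 8.61% with Bic and 14.2% with TTXw. Any maturation comparison called 18.7%. After TTXw for 180 min Pmp22 (log2 fold change 0.67, edgeR adjusted p = 0.00022) and Emp2 (0.72, adjusted p = 0.00080) rose, both by far less than the 5.09 of Emp1.

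Ifi202b (chr1:173962569-173982844, minus strand) shared the TTXw response of Emp1. Its level was 1.33, 8.13, 1.43 and 3.25 CPM in basal TTX cultures and 254, 172 and 248 CPM after TTXw for 180 min, with no overlap and a log2 fold change of 5.92 (SE 0.29). Basal TTX replicate 2 was the highest control, and without it the difference was 6.58. At TTXw 15 and 45 min the level was between 1.69 and 6.48 CPM, as in the controls. The counts were the same for both RefSeq transcripts of the gene, and its close HIN-200 paralogs could share reads with it, so the assignment to Ifi202b among its family is uncertain.

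KCl for 15 min gave Ifi202b levels of 20.7 and 32.7 CPM against 8.88, 13.4 and 6.44 CPM in basal cultures, a log2 fold change of 1.5 (SE 0.31) with no overlap. At KCl 180 min the libraries were at 2.42 and 5.16 CPM, below each basal library (-1.24, SE 0.53, thresholds not met). Bic left it between 8.10 and 11 CPM, within the basal range at all 3 times. Among maturation libraries it was at most 6.54 CPM, with the highest group mean of 5.23 ± 1.78 CPM (SD, n = 3) at KCl 15 min and 21DIV, and at 7DIV no library held more than 3 counts.

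Of 12 other genes of the HIN-200 family, 2 passed the filter in the stimuli experiment. Both were under the filter's level in every basal TTX library and reached it in all 3 TTXw 180 min libraries, where they were high, so their values there are descriptions with no test. Ifi203 had a silenced level of 3.38 ± 1.42 CPM (SD, n = 4) and 48.2 ± 6.97 CPM (SD, n = 3) after TTXw for 180 min, and Mndal 2.00 ± 1.06 CPM (SD, n = 4) and 21.5 ± 10.4 CPM (SD, n = 3). They lie within 250 kb of Ifi202b. Neither was called with KCl or Bic. Of 30 genes of the interferon response, 14 passed the filter there, and 2 of them rose after TTXw, beside 14.2% of all genes called in either direction. With KCl 1 rose and 1 fell, and with Bic 1 fell. The 2 after TTXw were Cxcl10, a chemokine (3.24, edgeR adjusted p = 0.00015), which was 6.79 CPM in basal cultures and at most 3 counts in a KCl or Bic 15 min library, and Ifitm3, a membrane protein that restricts virus entry (0.96, adjusted p = 0.015). In the TTXw 180 min cultures astrocyte markers summed to 10873 to 15207 CPM against 7409 to 8456 CPM in basal TTX cultures, and neuronal markers to 4332 to 5269 CPM against 7024 to 8181 CPM. The part of these shifts in the values of Emp1 and Ifi202b was not tested.

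Because Emp1 and Ifi202b moved together at TTXw 180 min, the 250 bases before their annotated starts were read from the RefSeq promoter table (GRCm38.p6), and those of Ccn1 and Fndc9, which peaked elsewhere, are shown beside them. Capitals mark matches, on either strand, to the motifs searched, which are named below.
Emp1, chr6:135362681-135362930, plus strand: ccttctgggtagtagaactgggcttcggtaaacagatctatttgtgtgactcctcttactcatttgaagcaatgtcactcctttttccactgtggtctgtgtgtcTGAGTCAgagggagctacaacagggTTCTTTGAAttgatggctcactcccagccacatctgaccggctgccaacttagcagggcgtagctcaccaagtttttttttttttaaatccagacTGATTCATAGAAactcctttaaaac
Ifi202b, chr1:173982845-173983094, minus strand: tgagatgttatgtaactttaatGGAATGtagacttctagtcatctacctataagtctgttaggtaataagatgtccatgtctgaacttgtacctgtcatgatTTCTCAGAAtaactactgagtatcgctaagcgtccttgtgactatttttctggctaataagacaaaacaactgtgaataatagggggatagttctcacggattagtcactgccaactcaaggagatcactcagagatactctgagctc
Ccn1, chr3:145649986-145650235, minus strand: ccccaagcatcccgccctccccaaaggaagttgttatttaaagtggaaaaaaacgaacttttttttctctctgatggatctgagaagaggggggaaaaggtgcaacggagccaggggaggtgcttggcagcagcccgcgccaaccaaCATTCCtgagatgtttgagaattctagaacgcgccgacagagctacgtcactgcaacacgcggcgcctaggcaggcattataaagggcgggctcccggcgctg
Fndc9, chr11:46235307-46235556, plus strand: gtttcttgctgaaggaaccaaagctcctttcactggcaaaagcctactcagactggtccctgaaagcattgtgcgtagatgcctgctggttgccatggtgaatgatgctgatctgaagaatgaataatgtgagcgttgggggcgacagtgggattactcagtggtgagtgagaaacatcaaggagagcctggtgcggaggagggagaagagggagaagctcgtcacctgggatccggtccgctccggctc
The Emp1 window, before the first of its 2 listed starts, held 2 AP-1 sites (TGANTCA, a motif bound by FOS and JUN dimers) that begin 145 and 25 bases before the start. An AP-1 site is found in 6.75% of the 32851 promoter windows of the table. The Emp1 window also held 2 matches to the GAS motif (TTCNNNGAA, bound by STAT factors), beginning at 120 and 22 bases, the second overlapping an AP-1 site, and GAS matches occur in 7.02% of windows. The window before the second Emp1 start held none of the motifs searched. The window of Ifi202b held a GAS match that ends 140 bases before the start and a TEAD motif (CATTCC, 12.6% of windows) at 228 to 223 bases, and that of Ccn1 a TEAD motif at 103 to 98 bases. None of the searched letters were found in the Fndc9 window, which was searched like the others for the cAMP response element (TGACGTCA, 1.55% of windows), the E-box (CACGTG, 6.02%) and the CArG box (1.47%) too. An AP-1 site was present before Ifi203 and Mndal, and a TEAD motif before Ifi203 as well. No AP-1 site was found before Ifi202b. These matches describe the sequence and do not show binding. Tgm3 had a window as well, with a TEAD motif at 91 to 86 bases, and Krt6a, Crct1 and Eln had none in the table.

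Ccn1 (chr3:145646971-145649985, minus strand), a secreted matricellular protein that binds integrins, followed a different course from the other genes. In the stimuli experiment its basal level was 3.72, 3.72 and 4.93 CPM, and it was highest at Bic 45 min, at 64.6 and 54.1 CPM (log2 fold change 3.84, SE 0.34). At Bic 15 min it was 21.9 and 14.4 CPM (2.20, SE 0.40) and at 180 min 4.58 and 8.26 CPM, again overlapping the basal libraries. With KCl the libraries were between 2.84 and 10.5 CPM and the 3 times did not meet the thresholds, although both libraries at 45 min and at 180 min lay above basal.

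TTX withdrawal gave Ccn1 levels of 8.84 and 9.62 CPM at 45 min (2.06, SE 0.52) and 18.3, 4.73 and 9.11 CPM at 180 min (2.22, SE 0.47), against 3.99, 1.74, 1.43 and 1.81 CPM in basal TTX cultures. Both groups lay above the controls, and without TTXw replicate 1 the 180 min difference was 1.55. Of the 8 genes Ccn1 was the 1 that met the thresholds at Bic+4AP 15 min in the maturation experiment. It was 28.6 and 39.2 CPM there (3.46, SE 0.43), 19.9 and 16.0 CPM at 180 min (2.54, SE 0.42), and 13.2, 18.4 and 19.6 CPM at KCl 180 min (2.47, SE 0.39), against 3.98, 2.50 and 2.77 CPM in basal cultures. At 7DIV the libraries ran from 0.816 to 14.2 CPM and no comparison met the thresholds.

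Of 5 other CCN genes listed, 2 were tested. Ccn3 fell with Bic+4AP at 180 min (-1.08, edgeR adjusted p = 0.0027), and Ccn4 rose after TTXw for 180 min (1.90, adjusted p = 1.0e-06), where Ccn1 was higher too. Of 22 known targets of the SRF and YAP regulators, the factors best known for driving Ccn1 in other cells, 17 passed the filter, and 2 rose with Bic, 2 with KCl and 5 with TTXw in the stimuli experiment, where 8.61%, 7.79% and 14.2% of all genes were called in either direction. In any maturation comparison 6 of 17 were called, beside 18.7% of all genes. Of these 4 rose and 3 fell, with a gene counted in both directions. Srf itself rose at Bic 45 min (0.96, edgeR adjusted p = 0.00072) and at KCl 15 min (1.00, adjusted p = 0.00050), but fell with Bic+4AP at 180 min in the maturation experiment (-1.11, adjusted p = 0.010). Vcl, which encodes the adhesion protein vinculin, rose after TTXw for 180 min (1.22, adjusted p = 0.00045).

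Eln (chr5:134702595-134747368, minus strand), the gene of tropoelastin, met the thresholds in no stimulus comparison, and its log2 fold changes ran from -1.07 to 0.64. In the stimuli experiment it was 11.2, 10.05 and 14 CPM in basal cultures, 18.5 and 18 CPM at Bic 15 min and 5.93 and 6.77 CPM at KCl 45 min. The Bic libraries lay just above the basal range and the KCl libraries below it. In the TTX and TTXw cultures Eln was between 21.3 and 33.8 CPM in all 12 libraries, above every library without TTX in that experiment. Of 21 other elastic fibre genes, 14 passed the filter in the stimuli experiment. Of these 2 rose and 1 fell with KCl, 1 rose and 1 fell with Bic and 2 rose with TTXw, beside 7.79%, 8.61% and 14.2% of all genes called in either direction. Emilin2, which encodes an elastic fibre glycoprotein, fell with KCl at 15 min (-1.61, edgeR adjusted p = 0.016) and Bic at 45 min (-1.51, adjusted p = 0.023). Loxl1, an enzyme that crosslinks elastin, rose with KCl at 15 min (1.43, edgeR adjusted p = 0.032) and after TTXw for 180 min (1.08, adjusted p = 0.022), and in the maturation experiment 0 of 12 tested were called after stimulation.

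Fndc9 (chr11:46235557-46239871, plus strand) lies inside an intron of Cyfip2, which is on the other strand. In the stimuli experiment it was 12, 26.8 and 7.2 CPM in basal cultures and 133.7 and 127.5 CPM after KCl for 15 min (log2 fold change 3.10, SE 0.26). Both stimulated libraries were far above basal. At KCl 45 min it was 27.4 and 34.7 CPM (1.02, SE 0.29), just above the highest basal library, and at 180 min 15.3 and 15.5 CPM. Bic gave 85.2 and 102 CPM at 15 min (2.60, SE 0.27), 48.9 and 77.5 CPM at 45 min (2.06, SE 0.27) and 22.9 and 13.9 CPM at 180 min, so the level was lower at each later time and back within the basal range at the last. Without basal replicate 2 the KCl and Bic 15 min differences were 3.72 and 3.23. In the order of means KCl 15 min, Bic 15 min, Bic 45 min and KCl 45 min each stood beyond the spread above the next, and the 180 min groups and basal did not differ.

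At 21DIV in the maturation experiment Fndc9 was 40.3, 13.4 and 17.7 CPM in basal cultures and 84.6, 145 and 28.6 CPM after KCl for 15 min (1.85, SE 0.41), with replicate 3 inside the basal range. No other 21DIV group met the thresholds, and Bic+4AP at 180 min gave 37.0 and 33.6 CPM, also within it. At 7DIV the gene was already high, at 90, 76.1 and 86.4 CPM in basal cultures and between 60.6 and 138 CPM after stimulation. In TTX and TTXw cultures it was at 0 to 5 counts per library. Of 10 other FNDC genes, 6 passed the filter in the stimuli experiment and 0 were called there after stimulation, beside 22.7% of all genes. At 21DIV in the maturation experiment 2 of 5 fell, beside 17.6% of all genes called in either direction. Of 4 tested genes within 250 kb of Fndc9, 1 rose with KCl, 2 with Bic and 1 with TTXw in the stimuli experiment. These stand beside 7.79%, 8.61% and 14.2% of all genes called in either direction. At 21DIV in the maturation experiment 1 of 4 fell. Adam19, a metalloprotease gene among them, rose with KCl at 15 min (1.60, edgeR adjusted p = 7.7e-05) and Bic at 45 min (1.01, adjusted p = 0.017).

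**Figure D3:**
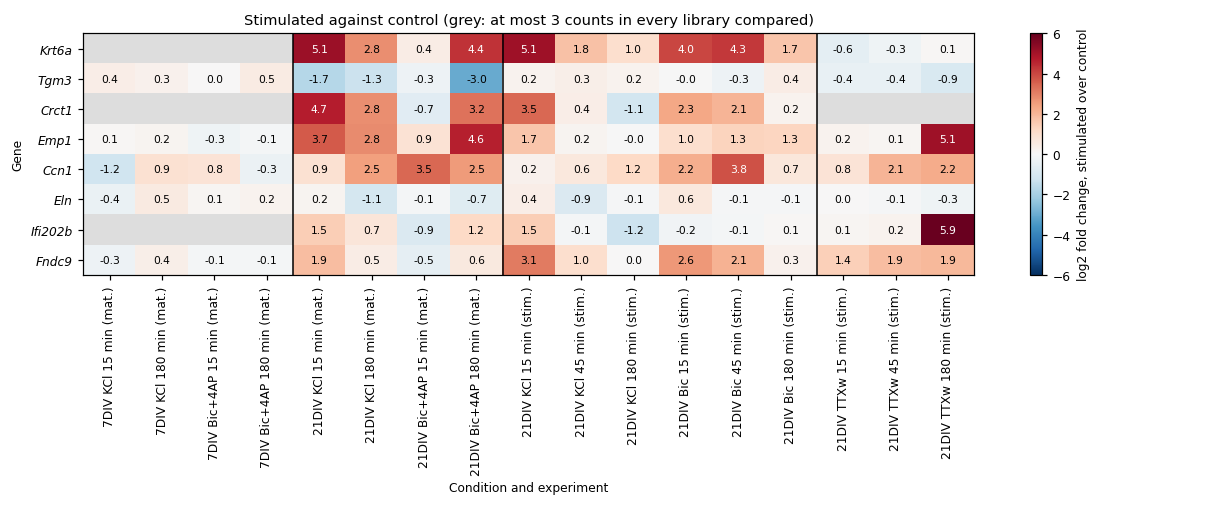
Log2 fold change of each gene (rows) in each stimulated group against its own control (columns; mat., maturation experiment, stim., stimuli experiment; red higher, blue lower, grey where no library compared held over 3 counts). The KCl 15 min columns at 21DIV hold 5.1 for Krt6a in both experiments, and the TTXw 180 min column holds 5.1 for Emp1 and 5.9 for Ifi202b; all values are descriptions, since the genes were chosen on them.

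Counted over the stages, 0 of the 8 genes met the thresholds (adjusted p under 0.05 and at least 1.5-fold) in any 7DIV comparison, where 1.98% of all genes tested did. At 21DIV in the maturation experiment 5 were higher and 1 lower in at least 1 comparison, against 17.6% of all genes in either direction. In the stimuli experiment 5 were higher with KCl, 5 with Bic and 3 with TTXw, beside 7.79%, 8.61% and 14.2% of all genes. By comparison, 4 were higher and 1 lower at KCl 15 min (6.23% of all genes), 3 higher and 1 lower at KCl 180 min (4.89%), 1 higher at Bic+4AP 15 min (0.0511%) and 4 higher and 1 lower at Bic+4AP 180 min (14.2%) in the maturation experiment. The stimuli experiment had 5, 1 and 0 higher with KCl at 15, 45 and 180 min (7.22%, 0.765% and 0.765%) and 5, 5 and 2 with Bic (3.42%, 7.45% and 0.765%). With TTXw 0, 0 and 3 were higher (0%, 0.382% and 14%). Any of the 8 maturation comparisons called 18.7% of genes, and any of the 9 others 22.7%. Nothing is read from these shares, since the same contrasts chose the genes.

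The comparison of unstimulated stages was not used to choose the genes, although its basal libraries are controls of the contrasts that did. Within the maturation experiment Tgm3 was higher at 21DIV than at 7DIV, and Emp1 and Fndc9 were lower. The test was edgeR's quasi-likelihood test on 3 basal libraries at 21DIV and 3 at 7DIV, with Benjamini-Hochberg adjustment over 10510 genes, of which 33.1% were called, 18.2% higher and 14.9% lower. Tgm3 went from 19.4, 23.3 and 29.8 CPM at 7DIV to 75.0, 237 and 154 CPM at 21DIV, with no overlap (log2 fold change 2.68, SE 0.34, edgeR adjusted p = 3.9e-05). Fndc9 fell from 84.2 ± 7.24 CPM to 23.8 ± 14.4 CPM (SD, n = 3 each; -1.81, SE 0.31, edgeR adjusted p = 0.00044). Emp1 fell from 12.1 ± 0.663 CPM to 1.79 ± 2.13 CPM (-2.73, SE 0.69, edgeR adjusted p = 0.0068). Each of these groups was separated from the other, but the call of Emp1 was lost with DESeq2 (adjusted p = 0.077) and when counts were summed over transcripts (adjusted p = 0.053). Emp1 passed the filter of this fit only through its 7DIV libraries. In the fit on all maturation libraries, where other groups reached it too, Emp1 was -2.77 (adjusted p = 0.0087). Its value also depended on the 21DIV basal replicate 1, without which it was -4.00, and the value of Fndc9 was -2.39 without the same library. The basal 21DIV cultures of the stimuli experiment were not part of this comparison. There Emp1 was 27.9 ± 7.42 CPM and Tgm3 22.8 ± 6.44 CPM (SD, n = 3), unlike in the maturation experiment at 21DIV. Fndc9 was 15.3 ± 10.2 CPM, low in both.

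Ccn1 (-0.72, SE 0.49, edgeR adjusted p = 0.27) and Eln (-0.55, SE 0.37, adjusted p = 0.27) were not called between stages, and their groups overlapped. The call of Eln turned on 1 library, since without 21DIV basal replicate 1 it was -0.98 and was called (adjusted p = 0.0497). Krt6a, Crct1 and Ifi202b did not pass the filter there and were not tested. Krt6a was found with 4 counts over the 7DIV basal libraries and 53 over those at 21DIV, a ratio of 4.82 after depth was taken into account (95% interval for counting error only, 1.78 to 18.4). For Ifi202b, with 1 count at 7DIV, under the floor, and 39 at 21DIV, no ratio is given. For Crct1 the ratio was 0.637 (0.162 to 2.97). Astrocyte markers moved with stage, since 8 of 9 rose and their sum went from 588 to 863 CPM at 7DIV to 4645 to 5669 CPM at 21DIV, as did 7 of 7 tested oligodendrocyte markers, and their part in these results was not tested.

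Silencing with TTX, compared with basal cultures of the same age, likewise shares its samples with contrasts that chose the genes but was not one of them. By edgeR's quasi-likelihood test 5 of the 8 genes fell, 1 rose and 2 were not called, where 21.6% of 12027 genes were called, 10.8% in each direction. Fndc9 had the largest difference, from 12, 26.8 and 7.2 CPM to 0.665, 1.16, 0 and 0.362 CPM. Its fitted log2 fold change of -4.68 (SE 0.55) rests on 4 counts over the 4 TTX libraries, and the ratio of pooled counts was 0.0359 (95% counting interval 0.00964 to 0.0940). Krt6a averaged 13.1 ± 3.16 CPM (SD, n = 3) without TTX and 2.87 ± 1.65 CPM (SD, n = 4) with it (-2.17, SE 0.46). Every TTX library was below every basal one for both genes. Krt6a and Fndc9 passed the filter through libraries without TTX, where they were high, so their values are descriptions with no test. For the same reason the count of members that fell is not read as support.

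Tgm3 averaged 22.8 ± 6.44 CPM (SD, n = 3) without TTX and fell with it to 4.86 ± 2.79 CPM (SD, n = 4; -2.06, SE 0.30, edgeR adjusted p = 7.7e-07), and by 2.70 without TTX replicate 4, the highest of its group. Emp1 fell from 27.9 ± 7.42 CPM to 7.36 ± 1.80 CPM (-1.93, SE 0.32, edgeR adjusted p = 9.5e-06). The groups were separate for both genes. Ifi202b fell from 9.57 ± 3.53 CPM to 3.54 ± 3.19 CPM (-1.37, SE 0.40, edgeR adjusted p = 0.0071), but its groups overlapped through TTX replicate 2, without which it was -2.03. The call of Ifi202b was lost without basal replicate 2 (-1.08, adjusted p = 0.0649) and when all libraries were thinned to equal depth (adjusted p = 0.053).

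Eln was the exception in direction, and rose under TTX to 28.5 ± 3.07 CPM (SD, n = 4) from a basal 11.7 ± 2.05 CPM (SD, n = 3) (1.27, SE 0.20, edgeR adjusted p = 3.0e-06), with no overlap. Of the other elastic fibre genes 4 rose with it and 1 fell, among 14 tested, beside 10.8% of all genes called in each direction. They included Ltbp3 (1.05, adjusted p = 0.0070) and Mfap2 (0.93, adjusted p = 0.0084), both of which encode microfibril-associated proteins, and the list's median was 0.32 beside 0.00 for all genes. Ccn1 (-0.90, SE 0.51, edgeR adjusted p = 0.19) and Crct1 (-2.23, SE 1.07, adjusted p = 0.11) were not called. The Crct1 libraries held 3, 9 and 1 counts in basal cultures and 0, 0, 2 and 0 under TTX, and the gene passed the filter only through KCl and Bic libraries. It was called by the likelihood ratio test (adjusted p = 0.048) and without TTX replicate 3 (adjusted p = 0.024), which leaves that group at 0 counts, and neither call is read as a difference. Under TTX 9 of 9 astrocyte markers rose, with sums of 7409 to 8456 CPM against 2621 to 3221 CPM, and 5 of 7 oligodendrocyte markers, and their part in these results was not tested.

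The related genes moved in both directions in these basal comparisons, tested with edgeR's quasi-likelihood test. Of all genes tested, 18.2% were called higher and 14.9% lower with stage, and 10.8% in each direction under TTX. With stage, the 2 keratins that passed the filter did so only through their 21DIV libraries, and are described with no test. Krt73 was 1.35 ± 2.11 CPM at 7DIV and 16.2 ± 4.84 CPM at 21DIV (SD, n = 3 each), and Krt12 3.01 ± 2.06 and 14.3 ± 1.53 CPM. Of 5 cornified envelope genes 4 rose, among them S100a16 (2.69, adjusted p = 9.6e-08). All 3 tested relatives of Emp1 rose with stage, while Emp1 fell, led by Pmp22 (1.37, adjusted p = 0.00035). Of 6 elastic fibre genes 3 fell, with Fbn2, which encodes a fibrillin, at -2.14 (adjusted p = 0.0011). Ccn3 rose (3.64, adjusted p = 8.3e-08), SRF and YAP targets divided into 5 that rose and 4 that fell of 14, 3 of 6 interferon response genes rose, and of 5 FNDC genes Fndc5, the precursor of irisin, rose (2.47, adjusted p = 2.4e-06) and Fndc4 fell (-0.94, adjusted p = 0.00020).

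Under TTX, Krt73 rose (2.28, edgeR adjusted p = 3.4e-05), and Krt12, which passed the filter only through libraries without TTX, was 0.894 ± 0.605 CPM (SD, n = 4) against 10.6 ± 1.77 CPM (SD, n = 3) in basal cultures. Of 8 cornified envelope genes 2 rose and 1 fell, and 2 of the 4 tested relatives of Emp1 were called higher, against the direction of Emp1. Emp2 rose (0.83, adjusted p = 0.00016), and Emp3, which passed the filter only through TTX and TTXw libraries, was 4.89 ± 2.55 CPM (SD, n = 4) under TTX and 0.568 ± 0.193 CPM (SD, n = 3) in basal cultures. Of 14 interferon response genes 7 rose and 1 fell, with a list median of 0.87, while Ifi202b fell and 0 of its 2 tested relatives were called. Of SRF and YAP targets 2 of 17 rose, of CCN genes 0 of 2 were called, and of 6 FNDC genes 2 rose and 1 fell. These counts stand beside 10.8% of all genes called in each direction under TTX.

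**Figure D4:**
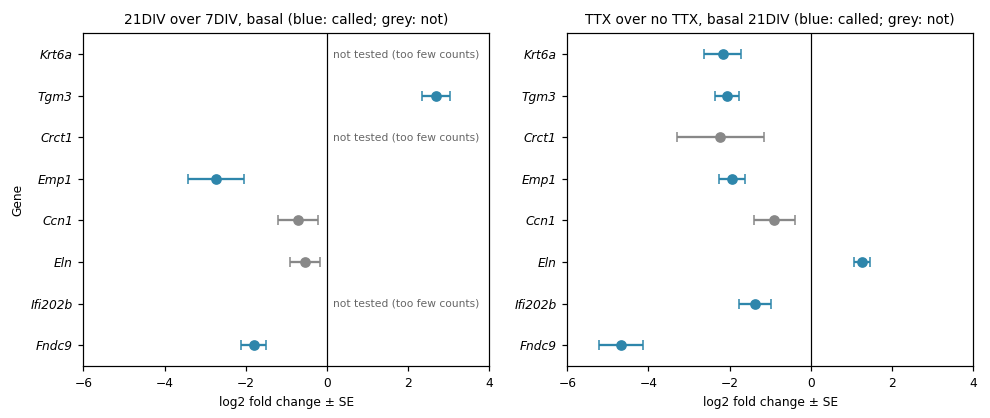
Log2 fold change ± SE of the 8 genes for 21DIV over 7DIV (left) and for TTX over no TTX at 21DIV (right), both in unstimulated cultures. Blue points passed edgeR's test and the fold threshold, and grey points did not. Tgm3 lies at 2.68 on the left and -2.06 on the right, and Eln is the gene to the right of 0 under TTX. Krt6a and Fndc9 passed the filter through libraries without TTX, so their points on the right are descriptions.

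The pattern of each gene was compared with 11281 others over the 21 condition means of log2 CPM, after the mean of each of the 4 sets of conditions with a common control was subtracted. The points share libraries, controls and depth, so the correlations are descriptions. Krt6a and Crct1 were more alike (Pearson r = 0.953, n = 21 conditions) than Krt6a was to any other gene, and Fndc9 followed both (r = 0.862 and 0.850). The genes outside the list most like Krt6a were Serpinb2 (0.918), Acan (0.915) and Inhba (0.902), and Serpinb2, a serine protease inhibitor, was also among the first 3 for Crct1 (0.920) and Fndc9 (0.873). Acan, the core protein of the aggrecan proteoglycan of perineuronal nets, was 33.6 ± 16.1 CPM (SD, n = 3) in basal, 226 ± 6.85 CPM (SD, n = 2) in KCl 15 min and 3.17 ± 1.40 CPM (SD, n = 4) in basal TTX cultures. Nptx2, a secreted pentraxin of excitatory synapses, was the most like Fndc9 (0.901).

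Emp1 was most like Ptx3 (r = 0.933), another pentraxin, the growth factor gene Hbegf (0.922) and the tropomyosin gene Tpm4 (0.920). Ifi202b was most like Srxn1 (0.939), an antioxidant enzyme, then the integrin gene Itgb1 (0.928) and the tubulin gene Tubb6 (0.908), and Emp1 and Ifi202b had r = 0.849 with each other. Ptx3 had 14.8 ± 2.28 CPM (SD, n = 4) in silenced cultures, against 160 ± 20.4 CPM (SD, n = 3) after TTXw for 180 min. Srxn1 was 60.9 ± 14.7 CPM and 449 ± 41.4 CPM in the same groups.

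Ccn1 had the early genes Ier2 (0.780), Btg2 (0.747) and Gadd45g (0.726) as its nearest, and r with the other 7 genes was at most 0.224. Tgm3 was most like Limd2 (0.888) and ran against Emp1 (r = -0.728), and Eln was most like Mboat2 (0.760). With Spearman's rho in place of Pearson's r at least 2 of the 3 nearest genes stayed the same for 3 of the 8 genes, and the first of the 3 kept its place for 3 genes, Krt6a, Ccn1 and Ifi202b.

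**Figure D5:**
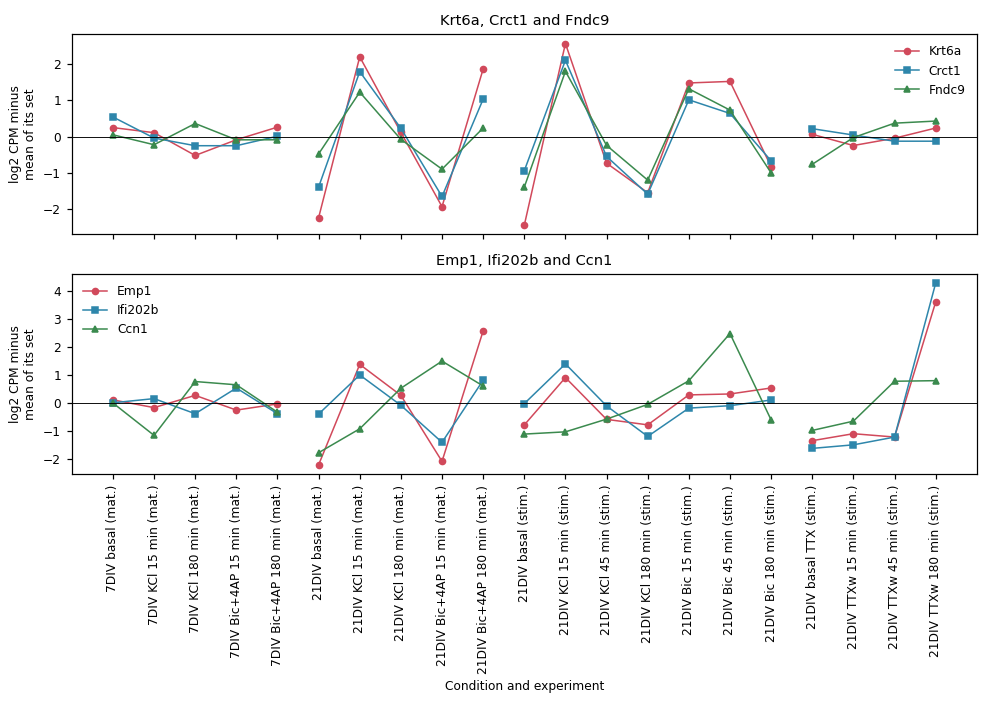
Mean log2 CPM of 6 of the genes in each of the 21 conditions, minus the mean of the set of conditions that share a control (lines join conditions of one set). Krt6a, Crct1 and Fndc9 (top) rise and fall together at 21DIV, Emp1 and Ifi202b (bottom) share the point at TTXw 180 min, and Ccn1 peaks at Bic 45 min.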

How the data were processed

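RNA of 55 mouse forebrain cultures was sequenced as CEL-Seq2 libraries. Per the paper and the labels, the authors aligned reads to mm10 with STAR and counted them with ESAT; versions, use of strand and the collapsing of molecular identifiers are not given in the sources used here. The deposited values are raw counts per RefSeq transcript, with no normalization. Accessions were matched to gene symbols (80.8% and 80.9% of transcripts; unmatched ones held 18.5% and 19.2% of counts), and each gene took its transcript with the most counts. No sample column was left out.

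Genes above 5 CPM in at least 2 libraries of a fit were tested with edgeR 4.0.16 (R 4.3.3; TMM, quasi-likelihood F test, Benjamini-Hochberg adjustment over all genes) and called at adjusted p under 0.05 and at least 1.5-fold. All groups of an experiment shared 1 fit, except the comparison of stages, fitted on its 6 libraries. The procedure was tested on simulated data. Log2 CPM used a prior count of 2. Intervals are exact and cover counting error only, since PCR copies may be counted; the floor was 3 counts.

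The 8 genes, the gene lists and the tests were chosen with earlier results of these data known. Named genes were the 8; for each list, up to 4 called genes with the lowest adjusted p; the 3 genes most like each member; and genes within 250 kb. Where the labels do not say that libraries came from separate cultures, p-values measure the spread between libraries, which may be technical; replicate libraries differed by more than sampling noise (chi-square per degree of freedom 2.17 to 20.2). Alternatives were other filters, normalizations, tools and sample sets, thinning, summed transcripts, a replicate block and leaving out each library.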

Additional observations from a re-analysis of the deposited data

Results flagged for a closer look

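In the basal TTX group of 4 libraries, 3 of the 8 genes had a library that stood apart, by a gap to its nearest neighbour, as a share of the group's range, above Dixon's 95% critical value of 0.829. Tgm3 had a share of 0.956, with 9.04 CPM in the highest library, 3.58 CPM in the next and 3.33 CPM in the lowest. For Ccn1 the share was 0.853, with 3.99, 1.81 and 1.43 CPM. For Crct1 it was 1, with 1.43 CPM, or 2 counts, in 1 library and 0 in the other 3. Chance sets such a library apart in about 1 in 20 groups, and the 8 genes share these libraries.

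Pairs of contrasts differed in direction, with the libraries of each contrast on opposite sides of their control, and in each case the difference itself was not tested. The log2 fold change of Ifi202b was 1.5 at KCl 15 min and -1.24 at 180 min in the stimuli experiment, a difference of 2.74. That of Eln was 0.42 at KCl 15 min and -0.88 at 45 min, a difference of 1.30, and neither met the thresholds.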

How the results depend on the processing

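The count of genes called between stages was 3477 and ran from 3056 to 3811 over other settings and from 2870 to 3395 with 1 library left out. For TTX against basal it was 2595, with ranges of 2171 to 2760 and 2309 to 2615. Genes called in at least 1 of 8 stimulus comparisons of the maturation experiment numbered 2197 (1656 to 2683), and from 1411 to 2573 with 1 library left out, the lowest being 1411 without 21DIV basal replicate 2 and 1434 without replicate 3. In at least 1 of 9 comparisons of the stimuli experiment the count was 2729 (2113 to 3172 and 2382 to 2776). No result reversed. With the replicate block the counts were 3067, 2171, 2035 and 2113, and Eln was called between stages (-1.29, adjusted p = 0.012). Between same-numbered libraries the median r was -0.0125 for stage and 0.0493 for silencing, over 2 pairs each. With so few pairs, these values cannot decide whether the numbers pair the samples. Of the stimulus values of the 8 genes, 33 of 889 moved by more than the spread between libraries of the groups compared under other settings. With 1 library left out 50 of 768 did. Of values with a test, 3 lost and 2 gained their call under other settings, and 1 lost and 2 gained it with 1 library left out, the cause of which was not tested; among them, Emp1 between stages and Ifi202b under TTX lost it, and Eln between stages and Crct1 under TTX gained it. Krt6a, Crct1 and Ifi202b held at most 3 counts in any 7DIV library, too few for a fold between groups of that stage.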
